A study of Mus musculus with 9 samples.

Results

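Aldo-keto reductases are enzymes that use NADPH or NADH to reduce aldehydes and ketones to alcohols. The genes examined were 8 listed mouse symbols, Akr1c18, Akr1c21, Akr1c14, Akr1c12, Akr1c13, Akr1a1, Akr1e1 and Akr7a5, of which 7 were among the 13081 genes of the table and Akr1c12 was not. The list was chosen by the measured difference between old and young kidneys, in which Akr1c18 was among the genes with the lowest ratio of old to young level, and was filled up with its relatives. All values of these 7 genes are therefore given as a description with no p-value, and where the fit across all genes called them, the call is a description too. Kidneys came from wild-type mice aged 3 months (young, n = 4) or 16 months (old, n = 5). The strain was C57BL/6 per the study's text, no treatment is named, and the labels give no sex. Values are normalised read counts, that is, reads per gene divided by a size factor for each library, from libraries that read the polyadenylated ends of transcripts. Title prefixes of the libraries go with age throughout, so handling that went with them and age cannot be told apart.

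In the kidney many of these enzymes sit in the proximal tubule, where they act on steroids, sugars and the aldehydes of lipid and toxin breakdown. The Akr1c enzymes are known as hydroxysteroid dehydrogenases. Akr1c18 encodes 20-alpha-hydroxysteroid dehydrogenase, which inactivates progesterone, and its transcript also marks a transient inner zone of the mouse adrenal cortex. Akr1c21 encodes a kidney-rich 3(17)-alpha-hydroxysteroid dehydrogenase and Akr1c14 a 3-alpha-hydroxysteroid dehydrogenase. Outside this group, Akr1a1 encodes aldehyde reductase, which turns glucuronate into gulonate, Akr1e1 a reductase of 1,5-anhydrofructose, and Akr7a5 a reductase of succinic semialdehyde and aflatoxin aldehydes.

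The bases just before the transcription start are shown for 4 genes, because of the 7 genes Akr1c18 had the lowest ratio of old to young level, Akr1c21 and Akr1a1 had nearly the same ratio and Akr7a5 was higher in every old library than in any young one. Each run holds the 250 bases before the RefSeq start (GRCm38.p6), 5′ to 3′ on the strand of the gene, and capitals mark a matched motif. The GENCODE starts of Akr1c18 and Akr1a1 lie 8 and 6 bases inside their windows. Of the windows searched but not printed, those of Akr1c14, Akr1c13, Akr1c12 and Akr1e1 held 50, 37, 34 and 10 bases of annotated exons of their gene. The Akr1c14 window (4059341 to 4059590) lies inside the GENCODE gene, which starts at 4049011.
Akr1c18, chr13:4150647-4150896, minus strand: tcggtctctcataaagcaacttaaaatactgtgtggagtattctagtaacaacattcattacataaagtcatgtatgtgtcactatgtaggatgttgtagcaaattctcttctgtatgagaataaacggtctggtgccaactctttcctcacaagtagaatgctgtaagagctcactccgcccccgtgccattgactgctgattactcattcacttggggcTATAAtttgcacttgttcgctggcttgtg
Akr1c21, chr13:4573825-4574074, plus strand: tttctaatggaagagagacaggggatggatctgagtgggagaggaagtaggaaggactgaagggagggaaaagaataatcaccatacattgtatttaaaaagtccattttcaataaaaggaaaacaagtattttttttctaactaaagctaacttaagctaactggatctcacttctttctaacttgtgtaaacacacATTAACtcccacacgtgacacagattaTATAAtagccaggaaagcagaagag
Akr1a1, chr4:116651675-116651924, minus strand: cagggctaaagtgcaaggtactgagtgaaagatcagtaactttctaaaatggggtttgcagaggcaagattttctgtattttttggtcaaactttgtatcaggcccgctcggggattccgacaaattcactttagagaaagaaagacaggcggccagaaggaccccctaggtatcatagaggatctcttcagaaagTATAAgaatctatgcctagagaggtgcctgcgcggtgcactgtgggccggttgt
Akr7a5, chr4:139310494-139310743, plus strand: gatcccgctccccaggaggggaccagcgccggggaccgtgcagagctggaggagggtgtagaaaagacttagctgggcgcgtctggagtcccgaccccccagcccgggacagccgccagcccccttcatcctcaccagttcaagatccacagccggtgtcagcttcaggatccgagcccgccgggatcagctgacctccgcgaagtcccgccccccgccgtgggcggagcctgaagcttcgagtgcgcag
The capitals TATAA, the core of a TATA box, stand 29 to 25 bases before the start of Akr1c18, 25 to 21 bases before that of Akr1c21 and 54 to 50 bases before that of Akr1a1. This core, added to the search after the sequences were seen, was looked for on the strand of the gene in all 250 bases, and 16.0% of 32851 windows in the RefSeq table held it. The windows of the other 5 listed genes had no match. On both strands of the 250 bases, the half-site of steroid receptors (AGAACA, in 16.1% of windows) and the NRF2 site (TGACNNNGC, 10.2%) had no match in any of the 8 genes, and the half-site of HNF1 (GTTAAT, 6.43%) matched once, in Akr1c21, where it is printed as ATTAAC. The matched letters overlapped in no window. The windows of Akr1c12 and Akr1c13 were identical at 95.5% of 246 aligned bases, against 62.0% to 77.7% for the other 27 pairs of the 8 windows, aligned with gaps.

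Libraries differed within an age. Young replicate 4 was the lowest young library in 4 of the 7 genes, old replicate 3 the lowest old library in 3 and old replicate 2 the highest old library in 4. For Akr1c18, old replicates 1 and 3 tied at 0, and this gene is not among those 3. The summed level of the fat cell markers was 574 in young replicate 2, which had the lowest young Akr1c18 level, and 775 in old replicate 3, against at most 45.1 and 304 in the other young and old libraries. Of 6 listed fat cell markers 3 were tested and 0 called, beside 59.7% of all genes, with a median log2 difference of 2.10. Without both of these libraries, without old replicate 4 or without young replicate 2, 2 fat cell markers were called higher. The part of fat cells in these values was not tested.

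Akr1c18 transcripts were nearly absent from old kidneys. The 4 young libraries held 123, 62.2, 206 and 185 normalised read counts, and the 5 old libraries held 0, 1.09, 0, 3.73 and 1.06. Every old library was below every young library, and the young libraries themselves ranged over more than a 3-fold span. In whole reads this was 150, 64, 210 and 204 in young against 0, 1, 0, 4 and 1 in old kidneys, so 4 of the 5 old libraries were at or under 3 reads. The mean was 144 ± 64.9 (SD, n = 4) in young and 1.18 ± 1.53 (SD, n = 5) in old kidneys. The summed reads, 628 against 6, gave a young level 114 times the old level after scaling, with an exact 95% interval of 52.1 to 312 that covers counting error only. On the log2(normalised count + 1) scale the old mean was lower by -6.17 (standard error 0.46), rank 2 of 12667 tested genes from the bottom. With old values this near 0 the size on this scale depended on the added constant and was -7.88 with 0.1 and -4.49 with 5. Akr1c18 lies on chromosome 13 from 4132615 to 4150654 (minus strand, GRCm38, GENCODE vM21) and has 9 exon blocks, and none of the 50-base stretches in the last 500 bases of its transcripts occurred in another annotated gene.

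**Figure D1:**
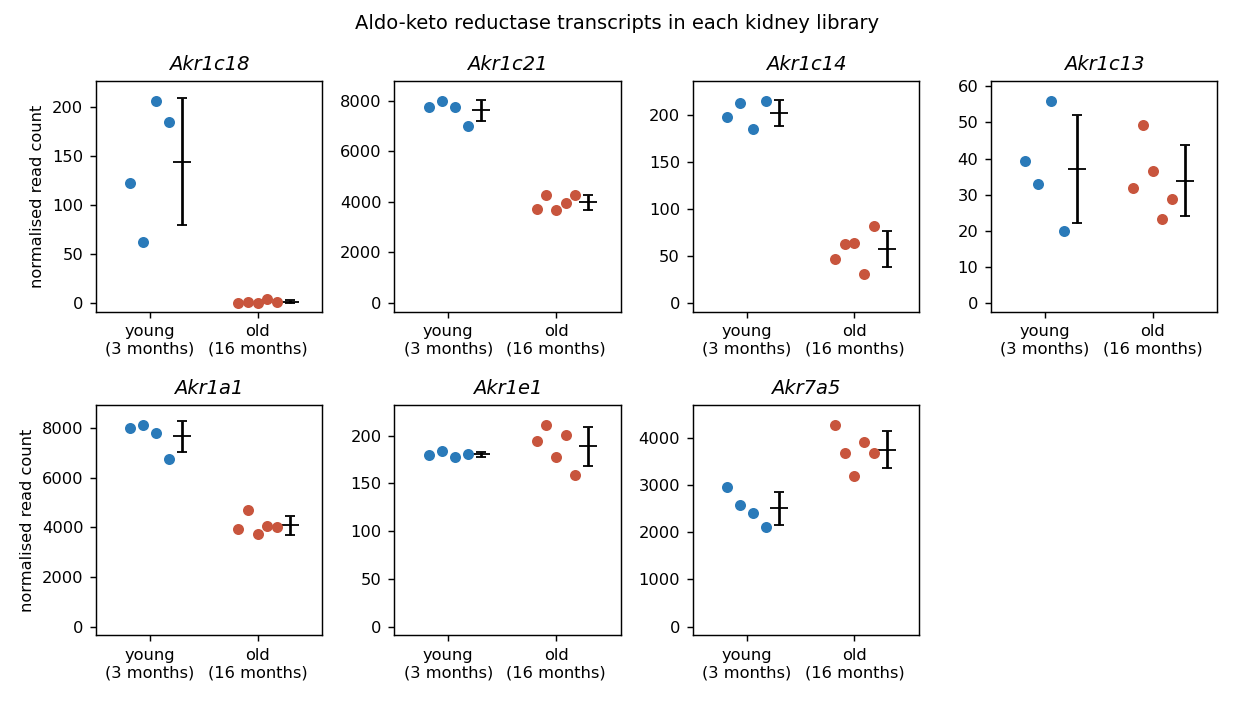
Normalised read count of each of the 7 aldo-keto reductases in every young (blue, n = 4) and old (red, n = 5) kidney library, with the group mean and SD as a black bar at the side of each group and each panel on its own axis. The Akr1c18 points lie between 62.2 and 206 in young kidneys and between 0 and 3.73 in old kidneys.

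Akr1c21 stood in old kidneys at 52.1% of its young level. Its values were 7735, 7984, 7774 and 7021 in young and 3727, 4269, 3671, 3947 and 4256 in old libraries. The groups did not overlap, and each varied little, with a coefficient of variation of 5.50% in young and 7.12% in old kidneys. The difference was -0.94 (standard error 0.09) on the log2 scale.

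Akr1c14 stood at 197, 213, 185 and 215 normalised read counts in young libraries and at 47.1, 62.4, 63.9, 30.8 and 81.7 in old libraries. The old level was 28.2% of the young level, with no overlap and a log2 difference of -1.88 (standard error 0.21). The old libraries spread more than the young ones, with coefficients of variation of 33.5% and 6.83%. Akr1c14 overlaps the pseudogene Gm18857 on the same strand.

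Akr1c13, a close paralogue of Akr1c12, showed no separation by age. Its values were 39.3, 33.0, 55.9 and 19.9 in young and 31.8, 49.2, 36.5, 23.3 and 28.6 in old libraries, a log2 difference of -0.08 (standard error 0.28). In the last 500 bases 11.97% of its 50-base stretches also occurred in Akr1c12, so part of its reads could belong to either gene and its counts are uncertain.

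Akr1a1, which lies on chromosome 4 and not in the Akr1c cluster, was lower in old kidneys by almost the same ratio as Akr1c21. It stood at 8026, 8137, 7794 and 6765 in young and at 3926, 4709, 3724, 4056 and 4003 in old libraries, 53.2% of the young level, with a log2 difference of -0.91 (standard error 0.10). Young replicate 4 was the lowest young library for both genes and old replicate 3 the lowest old library for both.

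Akr7a5, on the same chromosome, went the other way. The young libraries held 2949, 2568, 2404 and 2106 normalised read counts and the old libraries 4270, 3685, 3178, 3911 and 3685. Every old library was above every young one, with an old mean 1.49 times the young mean and a log2 difference of 0.58 (standard error 0.11).

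Akr1e1 levels overlapped between the ages. The gene had 179, 184, 177 and 180 normalised read counts in young and 194, 211, 177, 201 and 159 in old libraries, a log2 difference of 0.06 (standard error 0.12) with overlapping groups. The 4 young libraries differed by a coefficient of variation of 1.43%, the smallest of the 7 genes.

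In the fit across all genes, 4 of the 7 genes were called lower and 1 higher in old kidneys at an adjusted p-value under 0.05, beside 30.5% and 29.2% of all 12667 genes tested (59.7% in either direction). The groups did not overlap in 5 of the 7, beside 49.0% of all genes, and of these 4 were lower, beside 25.7%, and 1 was higher, beside 23.3%. Without the libraries highest in fat cell markers, a setting chosen after seeing the data, 4 of the 7 were called lower and 1 higher, beside 27.8% and 26.1% of all genes. These counts rest on the contrast with which the list was chosen, and nothing is read from them. Summed over the 7 genes, the level was 16491 to 19249 normalised read counts in young and 10851 to 12988 in old libraries, a total made up mainly of Akr1a1, Akr1c21 and Akr7a5.

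Markers of the tubule segments, glomerulus and vessels were all 21 in the table, as the kidney label has it. For the marker counts that follow, 29.2% of all genes tested rose and 30.5% fell. Of 7 proximal tubule markers 3 rose (Miox, Lrp2 and Slc5a12), 3 fell (Slc22a6, Slc5a2 and Cubn) and Slc34a1 was not called, with a median log2 difference of 0.04, and their summed level was 37648 to 41409 in young and 38309 to 51976 in old libraries. Of 8 markers of the loop and distal nephron 3 rose and 3 fell, and their summed level was higher in every old library, at 14933 to 17995 against 12330 to 13117 in young. Of 6 markers of podocytes and endothelium 4 rose and 1 fell, and their sum was also higher in every old library, at 1225 to 1384 against 1131 to 1187. The part of these shifts in the values of the aldo-keto reductases was not tested. In whole tissue, fewer cells of a type and less transcript per cell cannot be told apart. Of 9 adrenal cortex markers, Star, Cyp11a1 and Cyp21a1 among them and Akr1b7 also a family gene, 0 were in the table, in which no gene averaged under 4.49 normalised read counts. Of 5 blood markers Hba-a2 and Hbb-bt rose and Hba-a1 fell (adjusted p = 0.0327 by limma), but 0 blood markers were called lower with mitochondrial genes left out or without old replicate 3, old replicate 5 or young replicate 1, 3 or 4, and 2 without old replicate 4. Sequence shared between Hba-a1 and Hba-a2 was not checked. The Y-linked genes Ddx3y, Eif2s3y, Kdm5d and Uty were detected in each library and Xist was not in the table. Kdm5d rose by 1.43 on the log2 scale (adjusted p = 1.64e-05 by limma), Ddx3y by 0.43 (adjusted p = 0.0145) and Uty by 0.42 (adjusted p = 0.0114), and Eif2s3y was not called (-0.39, adjusted p = 0.131 by limma). Of these 4 genes, 2 in place of 3 were called higher without young replicate 4 or without both libraries highest in fat cell markers, and 1 was called lower without old replicate 2.

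The remaining family members on the list of neighbours were examined in the same fit, where p-values are those of limma adjusted over all genes tested. Of 13 listed genes 5 were in the table, 1 rose and 1 fell, beside 29.2% and 30.5% of all genes, and the median log2 difference was -0.40 against -0.0027 for all genes tested. Akr1c19, in the cluster between Akr1c13 and Akr1c12, rose from 46.7 ± 9.13 (SD, n = 4) to 89.6 ± 21.5 (SD, n = 5), a log2 difference of 0.91 (standard error 0.19, adjusted p = 0.000547 by limma). Akr1b10, of the aldose reductase subfamily, fell from 103 ± 2.97 to 42.3 ± 7.02, a log2 difference of -1.28 (standard error 0.16, adjusted p = 2.12e-06 by limma).

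Akr1b3 encodes aldose reductase, which makes the osmolyte sorbitol in the renal medulla. It stood at 8.19, 14.6, 11.8 and 21.7 in young and at 5.89, 7.66, 29.4, 1.87 and 4.24 in old libraries, and was not called (log2 difference -0.89, adjusted p = 0.156 by limma). Its highest value was in old replicate 3, which also had the highest level of the collecting duct water channel Aqp2, 2267 against 334 to 694 in the other old libraries. The other listed collecting duct markers did not share that excess. In old replicate 3 Aqp3 was 220 against 132 to 206 in the other old libraries and Slc4a1 was 137 against 105 to 143. Atp6v1g3 was 213 there, below its 249 to 315 in the other old libraries. The difference of Akr1b3 was -1.38 without old replicate 3 (adjusted p = 0.0131 by limma) and -0.53 without old replicate 4 (adjusted p = 0.3675 by limma). It was not called in 16 of 18 alternatives, with -0.50 by edgeR and -0.51 by DESeq2. In the last 500 bases 45.5% of its 50-base stretches also occurred in the pseudogene Gm6644, so its counts are uncertain. Akr1d1, the 5-beta-reductase of steroids, had a log2 difference of -0.40 (adjusted p = 0.167 by limma) and Kcnab2, a subunit of potassium channels with the same fold, one of 0.57 (adjusted p = 0.0794 by limma).

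**Figure D2:**
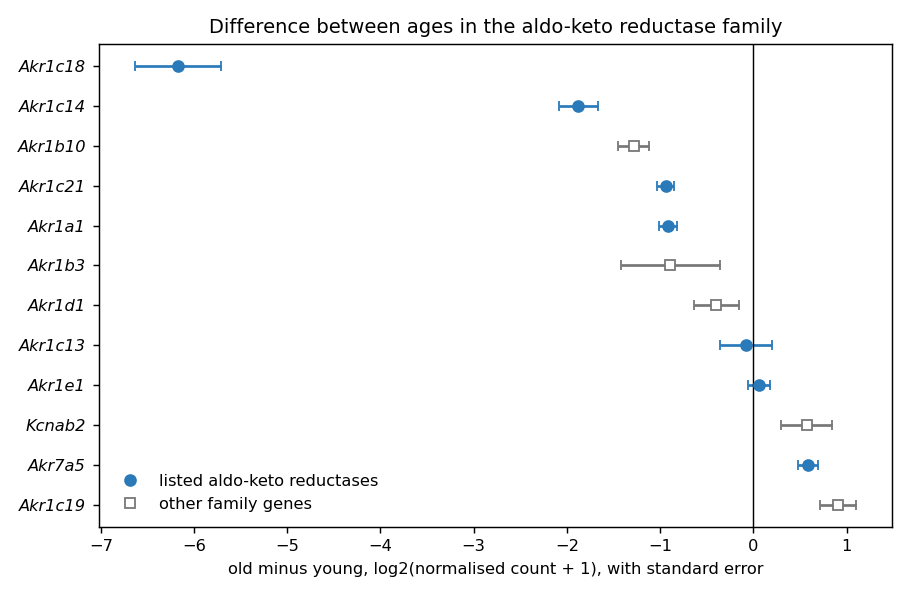
Old minus young difference on the log2(normalised count + 1) scale for the 7 listed aldo-keto reductases (filled circles) and the 5 other family genes in the table (open squares), with standard errors as bars. The values run from -6.17 for Akr1c18 to 0.91 for Akr1c19.

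The Akr1c genes and Akr1e1 lie together on chromosome 13, within the 560.2 kb between 4049011 and 4609174 (GRCm38, GENCODE vM21). The cluster has 9 protein-coding genes, all of this family, and their order along the chromosome is Akr1c14, Akr1c18, Akr1c13, Akr1c19, Akr1c12, Akr1c6, Akr1c20, Akr1c21 and Akr1e1. Along it the log2 differences were -1.88, -6.17, -0.08 and 0.91 in the first 4 genes, and -0.94 and 0.06 in the last 2. Akr1c12, Akr1c6 and Akr1c20 were not in the table. Direct neighbours thus took different values, and Akr1c21 and Akr1e1, less than 20 kb apart at their midpoints, had old levels of 52.1% and 104.7% of young.

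**Figure D3:**
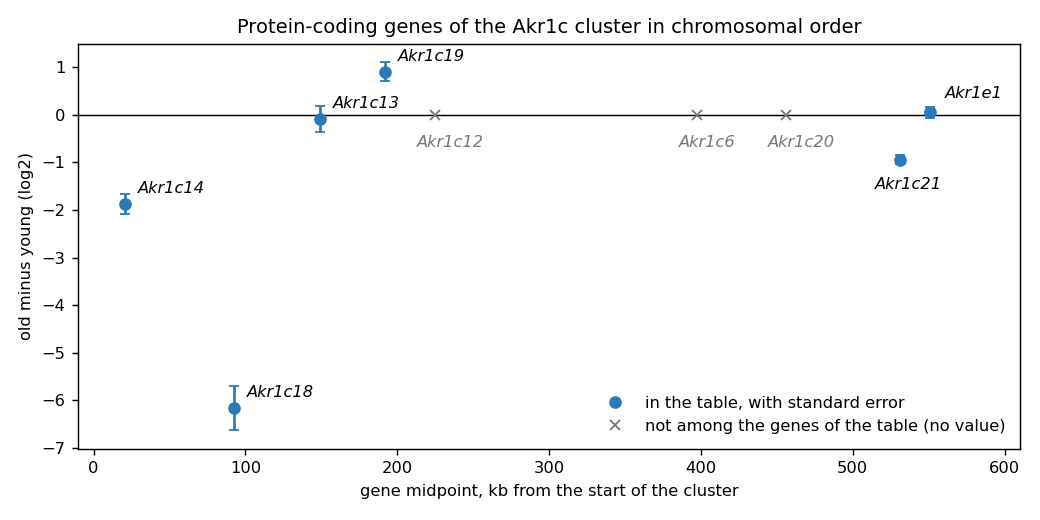
Old minus young difference in log2 units (points, with standard errors) of the protein-coding genes of the chromosome 13 cluster, against the distance of the gene midpoint from the start of the cluster in kb. Crosses on the zero line mark 3 genes with no value; Akr1c18 at -6.17 stands between Akr1c14 at -1.88 and Akr1c13 at -0.08.

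The 5 genes whose profile over the 9 libraries was nearest to that of Akr1c18 were Mrps28, Slc25a22, Ost4, Snhg8 and Apba3. Nearness was the root mean square difference of log2 values centred on each gene, taken among the 8151 genes that averaged 50 normalised read counts or more, and it was 0.88, 0.92, 0.99, 1.03 and 1.03. This measure is set mostly by the difference between the ages, by which Akr1c18 was chosen, and the 5 genes hold ranks 4 to 8 of all falls, so their nearness mainly restates the size of the difference. Their old levels were 2.16% to 3.88% of young. The 5 other listed aldo-keto reductases at that level, with smaller differences, lay at 2.35 for Akr1c14 to 3.45 for Akr7a5. Mrps28, a mitochondrial ribosome protein gene, held 168 to 175 in the 4 young libraries, a much narrower range than that of Akr1c18.

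Steroid dehydrogenases and reductases share substrates with the Akr1c enzymes. Of 27 listed genes 17 were tested, of which 10 fell, 2 rose and 5 were not called, with a median log2 difference of -0.46. Of all genes tested 30.5% fell and 29.2% rose, the background for this and each list that follows. The largest falls were in Hsd17b14 (log2 difference -1.68, adjusted p = 0.00254), H6pd, which makes NADPH in the endoplasmic reticulum (-1.64, adjusted p = 2.28e-08), and Srd5a3 (-1.50, adjusted p = 8.56e-07). Hsd11b1, which regenerates active glucocorticoid with the NADPH that H6pd supplies, fell from 523 ± 154 (SD, n = 4) to 211 ± 21.6 (SD, n = 5). Hsd11b2, which inactivates glucocorticoid in the distal nephron, fell from 657 ± 38.8 to 365 ± 75.3. The rises were in Hsd17b12 (1.12, adjusted p = 2.84e-08) and in Srd5a1, a steroid 5-alpha-reductase (1.08, adjusted p = 4.20e-06). Hsd17b14 had a mean of 16.9 normalised read counts in young and 5.06 in old kidneys.

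Among receptors and binding proteins of steroids, 8 of 11 listed genes were tested, 3 rose and 2 fell, with a median log2 difference of 0.13. Nr3c1, the glucocorticoid receptor, rose by 0.91 (adjusted p = 4.71e-07), Pgrmc2 by 0.55 (adjusted p = 0.000284) and Paqr5 by 0.45 (adjusted p = 0.00104). Paqr7, a membrane progestin receptor, fell by 0.56 on the log2 scale (adjusted p = 8.78e-05) and Pgrmc1 fell by 0.48 (adjusted p = 0.000465). The nuclear progesterone receptor gene Pgr was not in the table.

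Genes that are known to be higher in male than in female mouse kidneys were also listed, with earlier results of these data known. Of 8 such genes 7 fell and 1 rose, beside 30.5% and 29.2% of all genes, with a median log2 difference of -1.13, and the counts were the same under each alternative setting. The largest falls were in the cytochrome P450 genes Cyp4b1 (-2.36), Cyp2e1 (-1.32) and Cyp7b1 (-1.29), and Kap, an androgen-induced protein of the proximal tubule, fell by 0.69 (adjusted p = 0.00197 by limma). Cyp2j13 rose by 0.40 (adjusted p = 0.00188). Kap made up 87.0% to 94.4% of the summed level of the 8 genes, and the other 7 summed to 16905 to 25204 in young and 6346 to 8378 in old libraries. Young replicate 4 was the lowest young library for Kap and for the sum of the other 7. Among the aldo-keto reductases it was the lowest young library for Akr1c21, Akr1a1, Akr1c13 and Akr7a5. It was the highest for Akr1c14, at 215, and held 185 for Akr1c18, where the young libraries ran from 62.2 to 206. Of 3 genes known to be higher in females, Prlr rose, Slc22a7 fell and Cyp4a14 was not called. The part of this in the values of the aldo-keto reductases was not tested.

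The glucuronate and polyol pathway holds the substrate and product of aldehyde reductase. Of 10 listed genes 9 were tested, 4 rose and 3 fell, with a median log2 difference of 0.12. Ugdh, which makes the activated form of glucuronate, fell by 0.85 (adjusted p = 2.86e-05), and Xylb, a xylulose kinase at the far end of the pathway, fell from 1764 ± 100.4 (SD, n = 4) to 559.5 ± 82.7 (SD, n = 5), by -1.66 on the log2 scale (adjusted p = 2.57e-10). Cryl1, which oxidises gulonate, fell by 0.47 (adjusted p = 0.000663). Dcxr, which reduces xylulose, rose by 0.89 (adjusted p = 5.87e-06) and Miox, which draws inositol into glucuronate, rose by 0.65 (adjusted p = 0.000456). Rgn rose by 0.80 (adjusted p = 0.0471), but lost its call under 9 of 18 alternatives, with adjusted p-values from 0.0148 to 0.126. Gulo was not in the table.

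NADPH is the cofactor of most of these reductases. Of 12 genes of NADPH supply 8 fell, 3 rose and 1 was not called, with a median log2 difference of -0.67, against 30.5% and 29.2% of all genes. Idh1, the cytosolic isocitrate dehydrogenase, fell from 1976 ± 48.9 (SD, n = 4) to 681 ± 217 (SD, n = 5), by -1.59 on the log2 scale (adjusted p = 8.81e-08), and Nadk2 by -1.34 (adjusted p = 3.69e-07), besides H6pd. Me2 rose by 0.91 (adjusted p = 0.0142), Tkt by 0.82 (adjusted p = 0.000228) and Idh2, the mitochondrial isocitrate dehydrogenase, by 0.32 (adjusted p = 0.00936).

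Other enzymes that reduce carbonyls or oxidise aldehydes were also listed. Of 36 genes 30 were tested, 13 fell, 6 rose and 11 were not called, beside 59.7% of all genes called in either direction, with a median log2 difference of -0.32. Aldh3a2, the fatty aldehyde dehydrogenase, fell by -1.80 (adjusted p = 5.47e-09), Ptgr2, a prostaglandin reductase, by -1.77 (adjusted p = 4.39e-08) and Dhrs11 by -2.77 (adjusted p = 0.00033), the last from a mean of only 14.9 normalised read counts. With 2 old libraries at 0, the size for Dhrs11 depended on the added constant and was -4.24 with 0.1 and -1.57 with 5. Aldh2, the mitochondrial aldehyde dehydrogenase, rose from 1603 ± 157 (SD, n = 4) to 5175 ± 1299.8 (SD, n = 5), by 1.66 (adjusted p = 1.45e-08). The retinal dehydrogenase gene Aldh1a1 rose by 3.03 (adjusted p = 2.15e-06) and Aldh1a7 by 2.53 (adjusted p = 1.80e-06), from young means of 5.33 and 5.22.

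**Figure D4:**
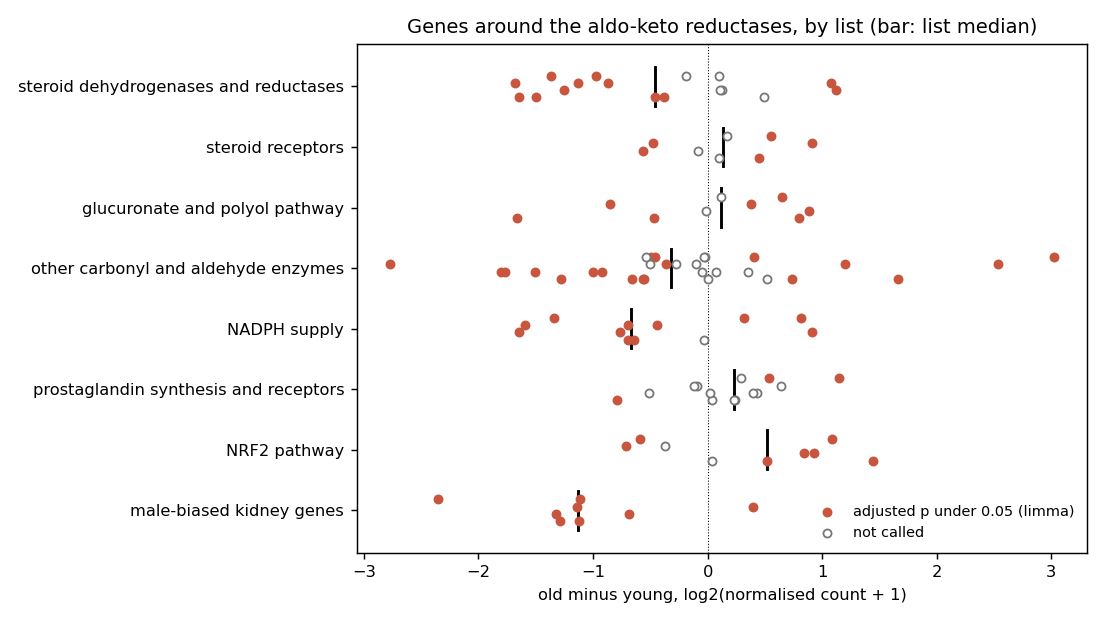
Old minus young difference on the log2(normalised count + 1) scale of each tested gene in 8 lists, with filled points for genes called by limma at an adjusted p-value under 0.05, open points for the others and a black bar at the list median. The medians run from -1.13 in the male-biased genes to 0.52 in the NRF2 pathway.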

How the data were processed

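Kidney RNA of 4 young and 5 old wild-type mice was measured. According to the labels and the methods of the study, the authors aligned strand-specific single-end reads from transcript ends to GRCm39 with TopHat2 2.0.10, allowing several alignments for a read, and counted them by gene and strand with HTSeq 0.6.1 on GENCODE vM26. What was deposited is a signal, the reads of a gene divided by 1 size factor a library. Taking the smallest positive value of a column as 1 read, 100% of values were whole (tolerance 0.02 reads), and libraries held 4486406 to 6355095 reads over 13081 genes. The floor of 3 reads was 4.72e-05% to 6.69e-05% of a library's reads. Reads have no molecular identifiers, so intervals cover counting error only. How low genes were dropped from the table is not given in the sources used here.

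Groups follow the ages in the labels. The test was limma 3.58.1 with a variance trend (run in R 4.3.3), comparing the ages on values of log2(normalised count + 1), over genes that reached 10 normalised counts in 4 or more libraries, with Benjamini-Hochberg adjustment over all of them. This scale understates changes of genes with few reads. The function was tested on simulated data. Nothing in the labels says that libraries of a group are independent beyond being separate samples, so p-values measure the spread between these samples. The members and gene lists were chosen with earlier results of these data known. Genes named were the members, the other family genes, up to 3 called rises and 3 called falls of each list, markers and the 5 nearest profiles. Hsd11b1, Hsd11b2, Kap, Nqo1, Aqp2 and genes named as not in the table were chosen for their role, after values were seen. Alternatives were other scalings (TMM, table totals, mitochondrial genes left out), pseudocounts and filters, tests of the recovered reads by edgeR 4.0.16 and by DESeq2 1.42.0, and leaving out libraries. Positions and transcript ends are from GENCODE vM21 (GRCm38), which is not the authors' build, and windows before the start are from RefSeq, which had all 8 listed symbols. Protein sequences were not used here.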

Additional observations from a re-analysis of the deposited data

Results flagged for a closer look

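Within each age, the lowest and highest library of 7 listed and 5 other family genes were set against the rest of their group. Of 24 groups of libraries, 1 stood out. Kcnab2 in young replicate 3 was at 10.8 normalised read counts, while the other young libraries lay from 18.0 to 19.9, a gap of 0.834 of the group's range on the log2 scale. At 1 group in 20, chance alone gives 1.20 such groups among 24.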

How the results depend on the processing

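Of 7 listed genes, 5 were called in every setting but 1, a filter that kept genes averaging 100 normalised counts or more, where 5 were tested and 4 called, a description since the list was chosen on this contrast. Akr1c13 and Akr1e1 were called under none. Scaling after removal of mitochondrial genes moved the median of all genes from -0.0027 to 0.13 on the log2 scale and the share of calls that were higher from 48.9% to 58.5%. It moved the differences of Akr1c21 and Akr1a1 to -0.80 and -0.77 and that of Akr1e1, uncalled, from 0.06 to 0.20. Over all genes, that filter left 4101 of 5655 tested genes called (72.5%) in place of 7568 of 12667 (59.7%). For prostaglandin genes, 3 called in the main test, the count was 7 with mitochondrial genes left out, 1 with that filter (2 genes tested) and 5 without both libraries rich in fat cell markers. Without 1 library the counts of called genes ran from 6900 to 7626 over all genes, 5 to 5 for the listed genes, 2 to 4 for the other family genes (4 without old replicate 2), 11 to 13 for steroid dehydrogenases, 5 to 5 for steroid receptors, 6 to 7 for the glucuronate pathway, 16 to 19 for other carbonyl enzymes, 11 to 11 for NADPH supply, 3 to 5 for prostaglandin genes (5 without old replicate 3 or old replicate 5) and 7 to 8 for the NRF2 pathway. Of the family genes and the named genes of the pathway lists that were refitted, only Akr1c13 changed direction, uncalled, from -0.34 to 0.15, and only Rgn lost its call. Akr1d1 gained one without old replicate 2 (adjusted p = 0.0407), as did Kcnab2 without old replicate 2 (0.0468) or with mitochondrial genes left out (0.0345), and Akr1b3 without both libraries rich in fat cell markers (0.0373). Over all alternatives the markers called higher and lower numbered 3 to 4 and 2 to 4 for the loop and distal nephron and 3 to 4 and 1 for podocytes and endothelium. The cause was not tested. No paired analysis was possible because the labels give no replicate numbers that the ages share. With under 4 normalised counts in each old library, depth limits the size given for Akr1c18.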

Other observations

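Aldo-keto reductases include known targets of NRF2, a transcription factor that answers oxidative and electrophilic stress. Of 10 listed genes of its pathway 9 were tested, 5 rose and 2 fell, with a median log2 difference of 0.52, beside 29.2% and 30.5% of all genes called higher and lower. Txnrd1, thioredoxin reductase, rose from 331 ± 27.4 (SD, n = 4) to 909 ± 126 (SD, n = 5), by 1.45 on the log2 scale (adjusted p = 2.38e-09 by limma). Hmox1, haem oxygenase, rose by 1.09 (adjusted p = 0.000521) and Gclm, a subunit of the enzyme that begins glutathione synthesis, by 0.93 (adjusted p = 1.58e-06). Gsr, glutathione reductase, fell by 0.71 (adjusted p = 4.34e-06) and Srxn1, sulfiredoxin, by -0.59 (adjusted p = 0.000444). Nqo1 was not called, at 100.4 ± 6.06 in young and 78.7 ± 17.8 in old kidneys (adjusted p = 0.0564 by limma). In place of 2 genes of the list, 3 were called lower with table totals, without old replicate 3 or without both libraries rich in fat cell markers.

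Some aldo-keto reductases also reduce prostaglandins. Of 18 listed genes of prostaglandin synthesis, transport and reception 14 were tested, 2 rose, 1 fell and 11 were not called, with a median log2 difference of 0.23. Ptgs1, cyclooxygenase 1, rose by 0.53 (adjusted p = 0.0082 by limma), Ptger1, a receptor of prostaglandin E2, by 1.15 (adjusted p = 0.00541) and Slco2a1, the prostaglandin transporter, fell by 0.79 (adjusted p = 0.00144). In old replicate 3 Ptger1 reached 162, whereas the remaining old libraries had 41.6 to 53.2. Ptgs2 was not in the table.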
